A study of Salix viminalis with 12 samples.

Results

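The genes of the cytoskeleton, namely actins, tubulins, the kinesin and myosin motors and the proteins that act on their filaments, were counted in the annotation of a root transcriptome of the willow *Salix viminalis*. Members were the contigs (assembled transcript sequences with a predicted coding sequence) whose description held tubulin, kinesin, myosin, profilin, villin or formin, or held actin at the start of the text or of a word in it. The rule took 1291 of the 86843 contigs, on 1274 transcripts. These are 1.49% of all contigs and 2.01% of the 64173 contigs that carry an Arabidopsis gene code. Grouped by that code, the members fell on 114 of the 13764 Arabidopsis genes in the table. A code names the Arabidopsis gene given for the closest match and not a willow gene, so several willow genes can share 1 code.

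Root RNA was sequenced in 12 libraries, and all plants were cuttings of 1 individual, so that a single genotype was sampled. Control soil at control temperature (CT), control soil with cold (CC), metal-polluted soil at control temperature (MT) and metal-polluted soil with cold (MC) had 3 libraries each. The polluted soil held a mixture of cadmium (1.5 ppm), copper (175 ppm), nickel (30 ppm) and zinc (500 ppm), and the temperature treatments started after 40 days and lasted 4 weeks. The sample labels give 22 °C and 4 °C, whereas the growth protocol gives 23 °C by day and 20 °C by night for the control and 7 °C and 5 °C for the cold. The study asked how cold and metals act alone and together on roots. The table holds 0 columns with a value per library, so no member was compared between CT, CC, MT and MC here. What follows counts contigs in the assembly of all libraries together. These counts have no replicates and are not expression levels, and the depth behind them is not known from the table.

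Actin filaments and microtubules are polymers that grow and shrink by adding and losing subunits, actin in the former and pairs of alpha- and beta-tubulin in the latter. In plants, microtubules guide the deposition of cellulose and form the spindle and the phragmoplast, the structure that builds the new wall between daughter cells. Actin filaments carry organelles and vesicles and are needed for the tip growth of root hairs. Kinesins move along microtubules and myosins along actin filaments, while profilins, villins, formins and the ARP2/3 complex set where actin filaments form and how they are bundled. The roles given below are those known from Arabidopsis.

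The contigs were spread very unevenly over the genes. The median gene had 5 contigs, with quartiles of 2 and 10 and a range from 1 to 286. Over all genes of the table, the median was 3, with quartiles of 2 and 5 and a maximum of 525. Of the 114 genes, 97 (85.1%, 95% Wilson interval 77.4% to 90.5%, which covers counting error only) had more than 1 contig, against 77.7% of all genes. Genes with at least 10 contigs numbered 32 (28.1%), against 1203 (8.74%) of all genes, and 17 genes had a single contig. Cytoskeletal genes thus had more contigs than the genes of the table at the median and more often had many, a description for which no test was made. The 2 genes with the most contigs held 31.7% of all member contigs, and the 10 with the most held 52.3%.

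Those 2 genes were actins. ACT11 (AT3G12110) had 286 contigs and ACT7 (AT5G09810) had 123, ranks 4 and 13 among all genes. In Arabidopsis, ACT7 is the main actin of vegetative tissue and responds to auxin, whereas ACT11 belongs to the actins of reproductive organs. Of the 8 Arabidopsis actin genes searched for, these were the only ones with a contig, and no contig carried the code of ACT1, ACT2, ACT3, ACT4, ACT8 or ACT12. The code ACT11 therefore stood for 69.9% of the actin contigs in a root. Plant actins are near-identical proteins, and how willow actins divide between the codes is uncertain.

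The actin contigs carried the names of many Trinity genes. Trinity, 1 of the assemblers used, names each contig by a numbered cluster, a part of that cluster, a gene and an isoform. A component here is all contigs of an assembly with the same cluster number, with its parts pooled. A Trinity gene is the contigs with the same cluster, part and gene. Of the ACT11 contigs, 83 came from the first Trinity assembly, 107 from the second and 96 from CLC, the other assembler. The 190 Trinity contigs fell on 123 Trinity genes in 65 components, and no component held more than 10 of them. ACT7 was split into 56, 34 and 33 contigs by assembly, on 76 Trinity genes in 53 components. The actins together lay on 179 Trinity genes, fewer than the 123 and 76 added up, so some Trinity genes held contigs of both codes. The actins had 1.56 Trinity contigs per Trinity gene, close to 1.49 for all contigs with a code. Their count was thus spread over many Trinity genes, with a number of contigs in each close to that of the whole table. These names are labels of the assembly, and how many willow loci they stand for was not tested. Both actins shared 40 components, 40 of the 65 with ACT11 and of the 53 with ACT7, so most components with an ACT7 contig also held ACT11.

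**Figure D1:**
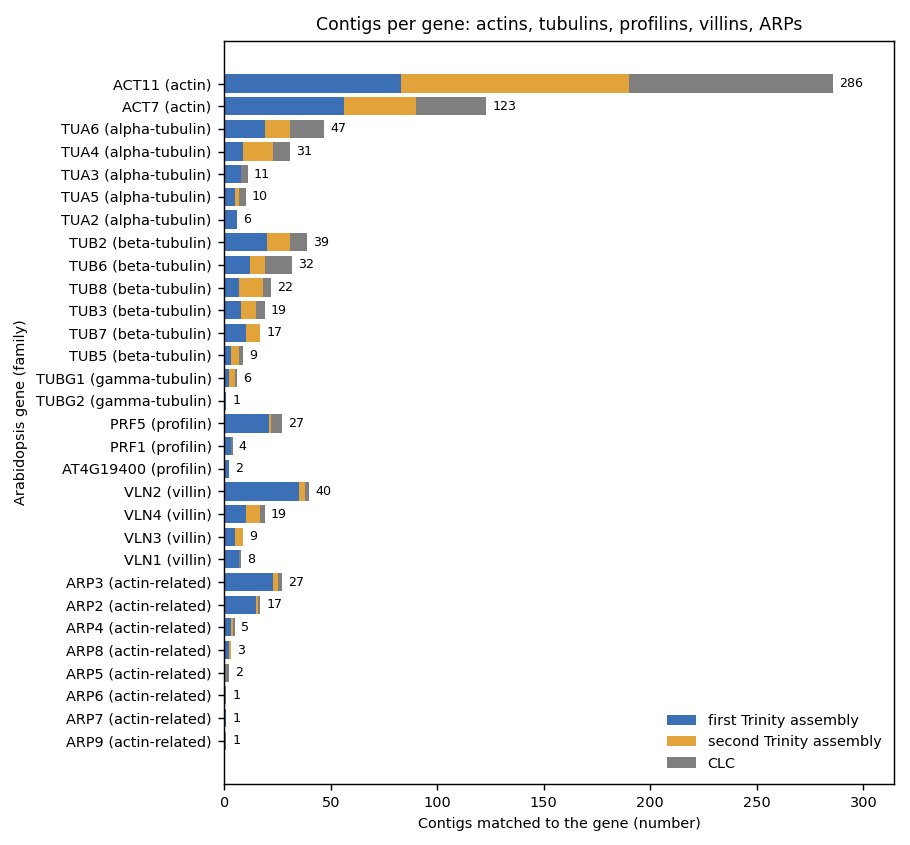
Number of contigs per Arabidopsis gene (horizontal axis) for each actin, tubulin, profilin, villin and actin-related protein (ARP) gene, with bars divided by the assembly the contigs came from. ACT11 with 286 contigs and ACT7 with 123 exceed every other gene plotted, of which TUA6 with 47 has the longest bar.

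Tubulins followed actin. Alpha- and beta-tubulin together had 243 contigs (18.8% of the members) on 11 genes, with a median of 19 contigs per gene. Among the alpha-tubulins, TUA6 (AT4G14960) had 47 contigs, TUA4 (AT1G04820) 31, TUA3 (AT5G19770) 11, TUA5 (AT5G19780) 10 and TUA2 (AT1G50010) 6. TUA1, which is expressed in Arabidopsis pollen, had none. Among the beta-tubulins, TUB2 (AT5G62690) had 39 contigs, TUB6 (AT5G12250) 32, TUB8 (AT5G23860) 22, TUB3 (AT5G62700) 19, TUB7 (AT2G29550) 17 and TUB5 (AT1G20010) 9. The codes of TUB1, TUB4 and TUB9 had none. TUA6 held 44.8% of the alpha-tubulin contigs and TUB2 held 28.3% of the beta-tubulin contigs. These shares cannot be set against the 69.9% of ACT11. Only 2 actin codes had contigs, so that 1 of them had to hold a large share.

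In Arabidopsis, TUA2 and TUA4 encode identical proteins, as do TUA3 and TUA5 and also TUB2 and TUB3, so that the split of contigs within these pairs is uncertain. Components were shared within both families. TUA4 and TUA6 shared 6 components, TUA5 and TUA6 shared 4, and TUB8 and TUB2 as well as TUB7 and TUB3 shared 4. TUB2 and TUB3 shared 3, TUA2 and TUA4 shared 2, and TUA3 and TUA5 shared 1. These numbers also depend on how many components each gene has, which ran from 5 for TUA2 to 21 for TUA6 among the alpha-tubulins, and are given as a description.

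Gamma-tubulin, which starts new microtubules, had 7 contigs on 2 genes. TUBG1 (AT3G61650) had 6 contigs and TUBG2 (AT5G05620) had 1, although the description of TUBG2 names a gamma-tubulin complex protein. A further 6 genes for the folding, complexes or modification of tubulin had 24 contigs. TFCB (AT3G10220), a cofactor that handles alpha-tubulin before it joins beta-tubulin, had 8. AT3G57890, with a tubulin binding cofactor C domain, had 7, and TFCE (AT1G71440), which acts in the same folding path, had 5. GCP4 (AT3G53760), of the gamma-tubulin ring complex, had 2 contigs, and TFCA (AT2G30410) and the tubulin-tyrosine ligase AT1G77550 had 1 each. These 6 are only the genes whose descriptions name tubulin, and the chaperonins that also fold it are counted among the partner genes at the end.

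The motors had more genes than the actins or tubulins. Their median was 7 contigs per gene, against 19 for alpha- and beta-tubulins and 3 over all genes. Kinesins and myosin motors together had 160 contigs (12.4% of the members) on 23 genes. The 15 kinesins had 99 contigs, with a median of 6. ARK2 (AT1G01950) and ARK3 (AT1G12430), kinesins with armadillo repeats, had 11 each. KP1 (AT3G44730) and ATK3 (AT5G54670), the latter a kinesin of the minus-end-directed type, also had 11. POK2 (AT3G19050), which helps to place the division plane, had 10, and ZWI (AT5G65930), a calmodulin-binding kinesin that shapes leaf hairs, had 9. These 6 members were thus separated by at most 2 contigs. The kinesin FRA1 had more, but its description did not name a kinesin, and it is given with the genes outside the rule. The 21 kinesin codes searched for were listed by hand and are not the same set as the 15 member kinesins. Of these codes, 10 were members, 5 had contigs outside the rule, and 6 had no contig. The 6 were those of ARK1, ATK2, ATK5, PAKRP1, RSW7 and KCA2.

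The POK2 count came in part from 1 transcript. Its 10 contigs lay on 6 transcripts, and 1 CLC transcript held 5 coding sequences, all matched to POK2. A formin, FH14, had a CLC transcript with 3. Over all members, 16 transcripts held more than 1 coding sequence. In 13 of them every coding sequence was a member, and in 12 all carried 1 code. Counting such transcripts once took kinesins from 99 to 93 and formins from 47 to 44, and changed actin not at all. In another transcript, a coding sequence of VLN3 lay beside one of AT5G57330, described as a galactose mutarotase-like protein.

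The 8 myosin motor genes had 61 contigs, with a median of 7. ATM1 (AT3G19960), of the class VIII myosins found at the plasma membrane and cell plate, had 11, and ATM2 (AT5G54280), of the same class, had 10. The others belong to class XI, the myosins that move organelles. XI-I (AT4G33200), which is attached to the nuclear envelope and moves nuclei, had 10. XI-E (AT1G54560), XI-2 (AT5G43900) and XI-K (AT5G20490), the last of which acts in root hair growth, had 7 each. The genes with most contigs in each class, ATM1 and XI-I, thus differed by 1 contig. Of the 17 myosin codes searched for, 8 had no contig, namely those of XI-1, XI-A, XI-C, XI-D, XI-G, XI-H, VIII-A and VIII-B.

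**Figure D2:**
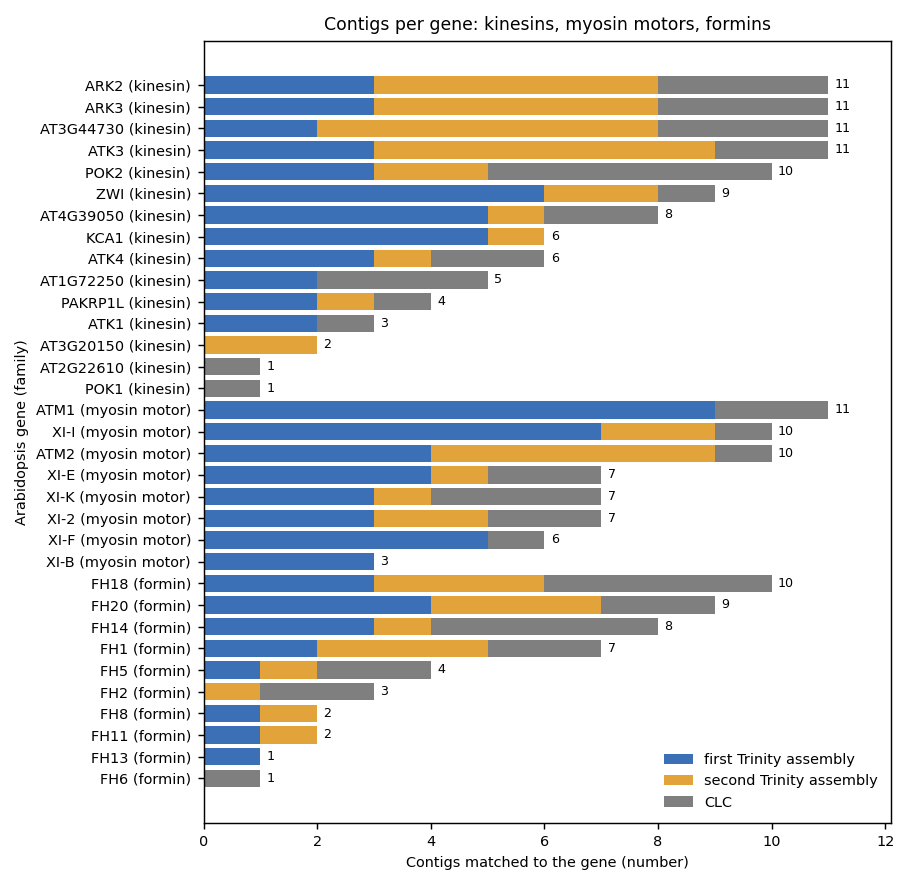
Number of contigs per Arabidopsis gene (horizontal axis) for the kinesins, myosin motors and formins whose descriptions the rule matched, with bars divided by assembly of origin. No gene plotted exceeds 11 contigs, and the first 4 kinesins and ATM1 share that value.

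A description with myosin did not always name a motor. A further 17 genes, with 67 contigs, were described as related to myosin, most often to its heavy chain, or to paramyosin or tropomyosin, proteins known for long coiled coils. MEE13 (AT2G14680) had 14 contigs and AT5G59210 had 13. AT4G32560 had 5, and ZYP1 (AT1G22260), which is a protein of the synaptonemal complex that holds paired chromosomes in meiosis, had 4, like AT4G40020 and AT5G52280. The contigs of MEE13 carried the names of few Trinity genes. All 14 came from Trinity and lay on 3 Trinity genes, or 4.67 per Trinity gene, and 9 of them were in 1 component. The coiled-coil genes together had 1.92 Trinity contigs per Trinity gene, against 1.04 for profilins and 1.49 for all contigs with a code.

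**Figure D3:**
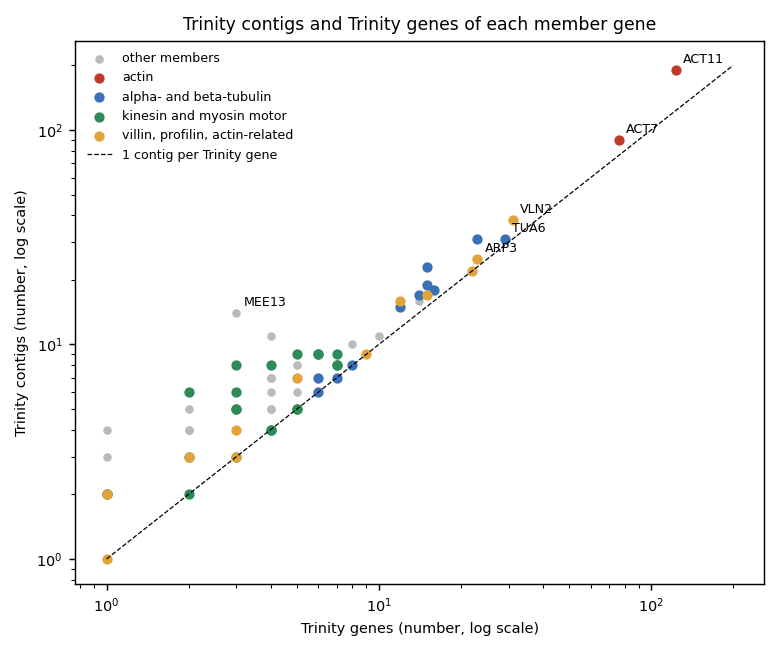
Trinity contigs (vertical axis, log scale) against Trinity genes (horizontal axis, log scale) for each member gene, with a dashed line at 1 contig per Trinity gene. ACT11 lies at 123 Trinity genes, far along the line, whereas MEE13 lies well above it with 14 contigs on 3 Trinity genes.

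Villins and profilins act on actin directly. VLN2 (AT2G41740) had 40 contigs, VLN4 (AT4G30160) 19, VLN3 (AT3G57410) 9 and VLN1 (AT2G29890) 8, and no contig carried the code of VLN5, a villin of Arabidopsis pollen. Villins bundle actin filaments, and some of them also cut filaments when calcium rises. Of the VLN2 contigs, 35 came from the first Trinity assembly, 3 from the second and 2 from CLC. VLN3 and VLN4 shared 5 components. Profilins bind single actin subunits and hand them to growing filaments. PRF5 (AT2G19770) had 27 contigs, PRF1 (AT2G19760) 4 and AT4G19400, described as a profilin family protein, 2. No contig carried the code of PRF2, PRF3 or PRF4. The profilin code with the most contigs was that of a gene known from Arabidopsis pollen, PRF5, and not of the vegetative PRF1. A code is a closest match only, and other codes of reproductive tissue went both ways. Those of TUA1 and VLN5, also known from pollen, had no contig, whereas ACT11, of the reproductive actins, had 286. Codes of this kind were not counted as a set. The PRF5 contigs of Trinity lay on 22 Trinity genes in 21 components, so that nearly every one stood alone.

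Formins start unbranched actin filaments. The 10 formin genes had 47 contigs, with FH18 (AT2G25050) at 10, FH20 (AT5G07740) at 9, FH14 (AT1G31810), which binds both microtubules and actin, at 8, FH1 (AT3G25500) at 7, FH5 (AT5G54650), which acts at the cell plate, at 4 and FH2 (AT2G43800) at 3. The codes of FH3, FH4, FH7, FH9, FH10 and FH16 had none. Of the 16 formin codes searched for, 10 thus had contigs. Their counts ran from 1 to 10 with a median of 3.5, against 6 for kinesins, 14 for villins and 3 over all genes.

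Branched actin filaments are started by the ARP2/3 complex, made of ARP2, ARP3 and further subunits. ARP3 (AT1G13180) had 27 contigs and ARP2 (AT3G27000) 17. The subunits ARPC3 (AT1G60430), ARPC2B (AT2G33385) and ARPC1A (AT2G30910) had 10, 8 and 7. The other actin-related proteins are mainly nuclear, and several belong to complexes that remodel chromatin. ARP4 had 5 contigs, ARP8 had 3, ARP5 had 2, and ARP6, ARP7 and ARP9 had 1 each. All 8 actin-related genes searched for were found, and those of the ARP2/3 complex had more contigs than any of the nuclear ones.

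Of the other actin-binding proteins, AT3G05520, the alpha subunit of the capping protein that closes the fast-growing end of a filament, had 23 contigs, and AT1G71790, its beta subunit, had 12. ADF4 (AT5G59890), an actin-depolymerizing factor, had 20. The fimbrin AT5G48460, which crosslinks filaments, had 10, and AT1G27100, described as an actin cross-linking protein, and AR791 (AT1G52080), described as actin binding, had 5 each. The 12 genes of this group had 92 contigs with a median of 4.5.

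The families differed in where their contigs came from. Of all contigs with a code, 52.9% came from the first Trinity assembly, 21.4% from the second and 25.8% from CLC, against 48.4%, 27.3% and 24.3% of the members. In the first Trinity assembly lay 34.0% of the actin contigs, 34.0% of the formin, 39.4% of the kinesin, 43.5% of the beta-tubulin and 44.8% of the alpha-tubulin contigs. By contrast, it held 78.8% of the profilin, 77.2% of the actin-related, 76.1% of the other actin-binding and 75.0% of the villin contigs. Pooled by family, filament subunits and kinesins thus lay below the share of all coded contigs, and most regulators of actin above it. Single genes did not all follow their family, as TUA3 (72.7%) lay above that share and VLN4 (52.6%) just below it. The villin share rested largely on VLN2, with 87.5% of its 40 contigs. These shares are a description over contigs that share an assembly, and their cause was not tested. They cover only contigs kept after the assemblies were merged and filtered, and not all that each assembly held. Of the 114 genes, 49 (43.0%) had contigs from all 3 assemblies, 38 from 2 and 27 from 1, of which 14 had CLC contigs alone.

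**Figure D4:**
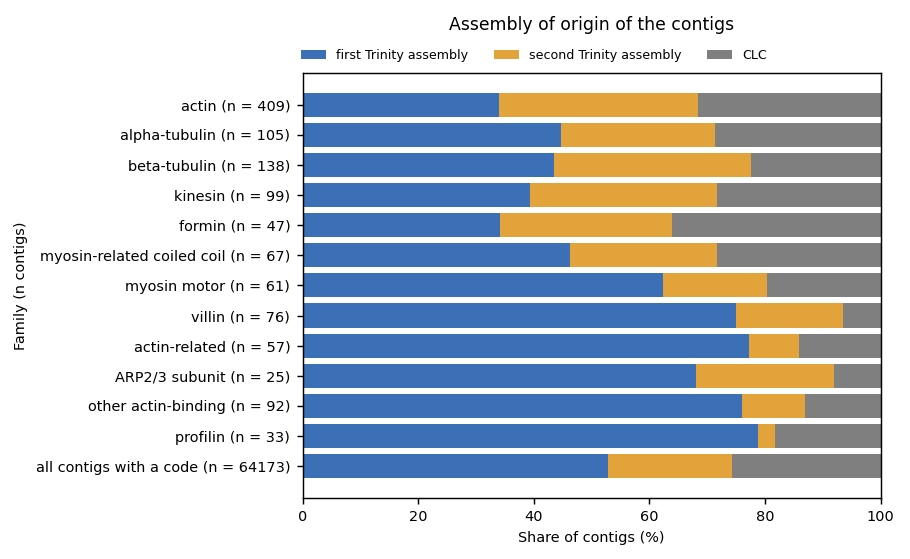
Share of contigs (horizontal axis, percent) from each assembly, by family, with the number of contigs beside its name and all contigs with a code in the lowest bar. The first Trinity assembly gives 34.0% of the actin contigs and 78.8% of the profilin contigs, on either side of 52.9% for all contigs with a code.

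Where a component held several member genes, these were mostly of the same family or group. Of the 491 Trinity components with a member, 401 held 1 member gene and 90 held more. A single contig made up 265 of the 491, and these could hold no second gene. In 86 of those 90, all member genes were of 1 family or group, and in 4 they were of different ones. ARP3 stood beside actin in 3 of these, and ARP8 beside AT1G27100 in the other. Another gene with a code, outside the members, was present in 45 components.

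Some members were no part of the cytoskeleton. The rule matched letters alone in 8 genes with 28 contigs, described as acting on a substrate or forming a product. ACO4 (AT1G05010), an enzyme that makes ethylene and is described as ethylene-forming, had 8 of these contigs. In 5 genes with 23 contigs the description named a shared protein fold, as in FTSZ2-1 (AT2G36250), a chloroplast division protein related to tubulin, with 8, and GLI1 (AT1G80460), a glycerol kinase, with 3. The families themselves had 63 genes and 1032 contigs (79.9%). Of these contigs, actins had 409, alpha- and beta-tubulins 243, gamma-tubulins 7 and the motors 160. The others were of actin-related proteins, profilins, villins and formins, which are not actins, tubulins or motors. Conversely, 6 genes of the families carried descriptions that the rule could not see, as P-loop or ATP-binding proteins, and had 36 contigs. FRA1, a kinesin needed for ordered cellulose deposition, had 20 of them, more than any kinesin among the members. XI-J had 5, HINKEL, PAKRP2 and KIN13A had 3 each, and TES had 2. These 6 were named after their values were seen.

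Partner genes of the families were looked up by code as well, and 65 of 82 (79.3%) were found, with 445 contigs. Of the found genes, 16 were members and 49 lay outside the rule, with 330 contigs. Among 23 actin-binding proteins 16 were found, led by CAP1, which recycles actin subunits, with 26 contigs, then the capping protein subunit AT3G05520 and ADF4. Of the ARP2/3 complex and its activator, the SCAR/WAVE complex, 11 of 13 genes were found, led by the ARP2/3 subunits ARPC2A with 16 contigs, ARPC4 with 11 and ARPC3 with 10. Proteins that bind microtubules were found for 15 of 22 genes. MAP65-3, a crosslinker of the phragmoplast, and TPX2, a spindle protein, had 13 contigs each, and MOR1, which promotes microtubule growth, had 10. All 4 genes of the gamma-tubulin complex were found, with 7 contigs for NEDD1, which recruits it, and 2 each for GCP3 and GCP4. Of the proteins that fold actin and tubulin, 19 of 20 were found, led by the chaperonin subunits CCT6A with 23 contigs, CCT1 with 11 and CCT8 with 10. Of the 97 codes listed by hand for the families, 63 (64.9%) were found, 57 among the members and 6 outside the rule. These lists leave out some family genes that the table holds, such as KP1.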

How the data were processed

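RNA of *S. viminalis* roots was sequenced by the authors in 12 libraries. They assembled the trimmed reads with CLC Genomics Workbench and Trinity, merged the assemblies, filtered them with TransDecoder and cd-hit-est, and matched the contigs to the *S. purpurea* transcriptome of Phytozome. The deposited table has 5 columns of names and text and no measured values, so the precision per library is unknown. The authors' processing notes name edgeR (v. 3.28.1), whose input was not used here.

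Contigs, transcripts, Trinity genes and components were counted by Arabidopsis code with pandas (v. 2.3.3) and NumPy (v. 2.4.6) under Python (v. 3.11.15), and plots were drawn with matplotlib (v. 3.10.9). A contig whose name lacked the Trinity form was assigned to CLC by elimination. The counting was tested on simulated data. No member was matched to the RefSeq gene table used here (0 members), and no sequence was printed.

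Members and lists were chosen with earlier results of these data known, and member groups were assigned by hand from the descriptions. Named were every actin, actin-related protein, tubulin, profilin and villin gene, the 6 genes with most contigs of each other family or group, the 3 of each partner list, and family codes without a contig. Groups of 8 letter-only and 5 fold-related genes are named by examples. Alternatives were single assemblies, transcripts or Trinity genes in place of contigs, stricter member lists, and, chosen after seeing the data, the members without the letter-only matches or without the actins.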

Additional observations from a re-analysis of the deposited data

How the results depend on the processing

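The number of contigs fell from 1291 to 625 in the first Trinity assembly alone, 352 in the second and 314 in CLC. Here contigs were divided by the assembly that supplied them. The assemblies had been merged and filtered, so counts by assembly do not show all that each assembly held. Genes numbered 71 in the second Trinity assembly alone, 63 with the families themselves and 63 with the fixed family codes, against 114. The median contigs per gene, 5 over all, was 3 and 2 in the Trinity assemblies, 2 in CLC, 8 with the families themselves and 3 when Trinity genes were counted. The share of genes with more than 1 contig was 60.6% in the second Trinity assembly and 51.8% in CLC, against 85.1%. All genes of the table were not counted in these settings. These medians and shares therefore cannot be set against the median of 3 and the 77.7% of all genes. Actin had the most contigs in each single assembly and by Trinity genes. Beta-tubulin followed with 60, 47 and 31 contigs and with 76 Trinity genes, except that the mixed group of other actin-binding proteins had 70 contigs in the first Trinity assembly. Without the letter-only matches, chosen after seeing the data, 106 genes with 1263 contigs remained, and without the actins 112 genes with 882. No paired analysis was possible because only annotation, and nothing measured by library, was analysed here. Likewise no replicate could be left out, and a gene without a contig may have been missed by the assembly or carry another code.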
